A study of Mus musculus with 16 samples.

Results

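The genes described here are 10 products through which regulatory T cells (Treg) act on other cells: the cytokines Il10 and Ebi3, the secreted fibrinogen-like protein Fgl2, the granule protease Gzmb, the surface nucleotidases Nt5e and Entpd1, the growth factors Areg and Csf1, and the lymphotoxin chains Lta and Ltb. The rule gives them as gene symbols. Each symbol matched 1 Ensembl identifier in both deposited tables, so that 10 of the 47643 identifiers are described. They were measured in spleen cells of TRaGS mice, whose thyroid hormone receptor alpha no longer binds DNA, and of wild-type littermates (TRaWT). The labels state no zygosity, age, sex or strain, and name no cell type to which the allele was restricted. The allele alters the receptor protein, and counts per gene do not check the genotype labels. There were 4 mice of each genotype, and from every mouse CD25- CD4+ T cells (labelled naive, called CD4 here) and CD25+ CD4+ Treg were sequenced separately, giving 16 libraries in 4 groups. CD4+ cells were enriched with magnetic beads before flow cytometric sorting. The libraries were 3' tag libraries, which read the 3' ends of polyadenylated transcripts.

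Treg restrain immune responses by several routes. They secrete inhibitory cytokines such as interleukin 10. They degrade extracellular ATP to adenosine through the paired enzymes CD39, encoded by Entpd1, and CD73, encoded by Nt5e. They can release granzymes. Treg of tissues also make amphiregulin, the product of Areg, which acts in repair. Thyroid hormone receptor alpha is a nuclear receptor that binds DNA response elements and regulates transcription there.

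Values are the authors' normalised counts, read counts divided by 1 factor per library, given as mean ± SD with n = 4 animals. A gene was tested in a subset where its mean over the 8 libraries was at least 5 normalised counts, and a member below that is called too low to judge. Fold changes are TRaGS minus TRaWT on the scale of log2(normalised count + 1), given with their SE and, where stated, the 95% interval. Genes were called at an adjusted p under 0.05 in limma, with Benjamini-Hochberg adjustment over all tested genes of a subset. The labels state no dates of sorting or library preparation. By the mouse and library numbers in the titles, TRaGS replicates 3 and 4 follow all other animals. For them genotype cannot be told apart from whatever goes with that order.

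The CD4 libraries held 2679119 to 5095278 recovered reads and the Treg libraries 2912038 to 4154027. Gm42418 had the most reads in every library and is counted in these totals, with 21.1% to 41.1% of reads in CD4 and 20.8% to 33.0% in Treg. The 3 reads that a count of 0 allows came to 0.589 to 1.12 CPM in a CD4 library and 0.722 to 1.03 CPM in a Treg library, for counting error only, where CPM is the read count scaled to a common library total. The sort markers Foxp3 and Il2ra followed the labels. Foxp3, the lineage factor of Treg, had 1165 ± 65.4 normalised counts in TRaWT Treg and 1156 ± 199 in TRaGS Treg, against 80.9 ± 38.04 and 116 ± 58.7 in the CD4 libraries. Il2ra, which encodes CD25, had 1500 ± 151 and 1141 ± 165 in Treg, against 104 ± 25.7 and 94.99 ± 32.6 in CD4. Of the other sort markers, Ikzf2 (3751 ± 432 and 5466 ± 668 in Treg) and Cd4 (736 ± 17.4 and 911 ± 90.0) were higher in TRaGS without overlap in both subsets. Foxp3, Il2ra, Cd3e and Cd3g overlapped in both. The 6 sort markers summed to 0.262% ± 0.0202 of reads in TRaWT Treg and 0.322% ± 0.0178 in TRaGS Treg (exact permutation p = 0.0286, the smallest possible). In Treg 1 of the 6 was called higher. For CD4 that permutation p was 0.143. No naive marker is named for the CD25- sort, so these cells are called CD4. Markers of other cell types (30 genes of B cells, plasma cells, myeloid cells, NK cells, neutrophils, mast cells and basophils) summed to 0.00278% to 0.00897% of reads in TRaWT Treg and 0.00492% to 0.0255% in TRaGS Treg. The genotype difference of that share had a two-sided exact permutation p of 0.171, where the smallest possible p is 0.0286. The highest share was that of TRaGS replicate 1, and without it the TRaGS mean exceeded the TRaWT mean by 0.00155 percentage points in place of 0.00621. Plasma cell markers summed to 0.00149% ± 0.000871 of reads in TRaWT Treg and 0.00552% ± 0.00718 in TRaGS Treg (exact permutation p = 0.229), with Igkc at 421 and Jchain at 53.1 normalised counts in TRaGS replicate 1. Mzb1, a plasma cell marker, had no read in TRaWT Treg and 25.7, 0.723, 14.5 and 3.26 normalised counts in TRaGS Treg. B cell markers summed to 0.00233% ± 0.00134 and 0.00430% ± 0.00208 (exact permutation p = 0.200). The part of these markers in the results was not tested. Values without TRaGS replicate 1 are given for the members whose genotypes did not overlap in Treg, and not for genes outside the members. In CD4 the share was 0.00425% to 0.00734% in TRaWT and 0.00275% to 0.0107% in TRaGS (exact permutation p = 0.886). Of the 30 markers, 6 were at 0 in all 8 Treg libraries (Adgre1, Klra8, Retnlg, Cpa3, Mcpt8 and Fcer1a).

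The animal TRaGS replicate 2 stood apart in both subsets. Its CD4 library differed from the other 7 by a chi-square per degree of freedom of 68.9 to 93.8, against 13.4 to 36.9 for the pairs without it. Its Treg library differed from the other 7 by 18.4 to 32.8, against 7.44 to 18.2. Both are the deepest libraries of their subset. The chi-square includes Gm42418, the gene with most reads, which had its lowest share of each subset in this animal (21.1% in CD4 and 20.8% in Treg). The part of Gm42418 in these chi-square values was not tested. The CD4 library also had the highest share of other-cell markers in CD4, with 76.4 normalised counts of Lyz2 (5.44 or less in the other 7), 96.9 of Flt3 (31.7 or less), 61.5 of Pax5 (46.02 or less) and 49.5 of Cd79a (2.93 or less). Other markers of the same cell types went the other way. Cd79b (2.83), Ms4a1 (2.12) and Igkc (6.36) had their lowest CD4 values in this library, and Itgax and Csf1r were at 0. The markers thus do not point to 1 cell type as a whole. Without this animal 0 members were called in CD4, 1 in Treg (Lta) and 0 for the difference between subsets.

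The upstream sequences of the members whose genotypes did not overlap in Treg (Csf1, Fgl2, Gzmb and Lta), and of Ltb, the partner chain of Lta, are shown because these genes carry the results that follow. Each window is 300 bases from RefSeq (GRCm38.p6), 250 before the transcription start and 50 after it, written 5′ to 3′ on the gene's strand. RefSeq windows were matched for 9 of the 10 members (all but Il10), with 2 windows for Entpd1. The capitals mark the AP-1 motif TGACTCA in Fgl2 and Gzmb and an NF-kB motif in Csf1 and Ltb, each searched on both strands. The motifs were chosen after the values had been seen, and 1 exact form of each was searched.
Csf1, chr3:107760420-107760719, minus strand: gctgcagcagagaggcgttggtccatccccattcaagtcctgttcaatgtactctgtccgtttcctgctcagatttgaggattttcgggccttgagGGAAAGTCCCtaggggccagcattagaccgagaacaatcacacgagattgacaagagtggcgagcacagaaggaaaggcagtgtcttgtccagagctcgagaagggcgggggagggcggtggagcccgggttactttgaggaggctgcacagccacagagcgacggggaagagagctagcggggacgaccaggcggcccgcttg
Fgl2, chr5:21372423-21372722, plus strand: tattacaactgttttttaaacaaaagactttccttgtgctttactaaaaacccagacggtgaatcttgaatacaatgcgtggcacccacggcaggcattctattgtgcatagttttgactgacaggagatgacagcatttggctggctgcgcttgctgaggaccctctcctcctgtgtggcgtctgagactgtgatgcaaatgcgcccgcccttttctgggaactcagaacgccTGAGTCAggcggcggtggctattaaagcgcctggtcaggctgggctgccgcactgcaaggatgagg
Gzmb, chr14:56262285-56262584, minus strand: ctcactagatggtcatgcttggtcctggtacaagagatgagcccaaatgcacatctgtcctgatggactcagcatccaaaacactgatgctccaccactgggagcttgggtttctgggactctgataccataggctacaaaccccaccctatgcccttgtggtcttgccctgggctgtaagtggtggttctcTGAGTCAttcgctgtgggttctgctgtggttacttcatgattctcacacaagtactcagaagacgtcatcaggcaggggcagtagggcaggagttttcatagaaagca
Lta, chr17:35205302-35205601, minus strand: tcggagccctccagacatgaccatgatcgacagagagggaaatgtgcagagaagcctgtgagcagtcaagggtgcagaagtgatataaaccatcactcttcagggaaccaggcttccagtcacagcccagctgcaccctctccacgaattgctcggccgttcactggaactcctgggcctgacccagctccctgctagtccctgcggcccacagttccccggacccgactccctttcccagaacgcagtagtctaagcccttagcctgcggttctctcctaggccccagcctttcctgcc
Ltb, chr17:35194257-35194556, plus strand: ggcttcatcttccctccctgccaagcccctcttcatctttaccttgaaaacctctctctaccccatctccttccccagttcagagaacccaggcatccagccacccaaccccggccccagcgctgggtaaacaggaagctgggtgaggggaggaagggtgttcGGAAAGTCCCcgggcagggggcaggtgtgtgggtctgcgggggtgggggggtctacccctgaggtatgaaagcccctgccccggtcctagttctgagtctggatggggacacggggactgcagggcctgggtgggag
The AP-1 letters began at position -16 of Fgl2 and at -58 of Gzmb, counted from the start site, and stood in 5.20% of all 32851 RefSeq mouse windows of this length. The NF-kB letters began at -154 of Csf1 and at -87 of Ltb and stood in 0.155% of windows. The Lta window held neither. The letters AGGTCA, the half-site that thyroid hormone receptors bind, stood in 16.3% of windows and in 0 of the members' 10 windows. The direct repeat of that half-site with 4 bases between stood in 0.0152% of windows and in 0 of the members' windows. A match describes letters only, and no match says only that these letters were absent from the window. Half-sites within a direct repeat were also counted as half-sites.

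In Treg the genotype comparison asks how loss of DNA binding by the receptor alters these products in the cells that use them. All 10 members passed the level filter there. Csf1 rose and Lta fell in TRaGS Treg, and the other 8 members did not pass the test. Genes called over the whole table were 0.959% of 11051 tested, 0.733% higher and 0.226% lower. Genotypes did not overlap for 3 members that were higher in TRaGS (Csf1, Fgl2 and Gzmb) and 1 that was lower (Lta), where the same held for 2.84% and 2.23% of all tested genes. An unadjusted p under 0.05 was found for 5 of the members and for 9.12% of all tested genes. The median log2 fold change was 0.67 over the members and 0.01 over all tested genes. These counts describe the members and are no independent evidence, since the members were not chosen blind to these data. Gzmb and Areg averaged under 5 normalised counts in TRaWT Treg and passed the filter through their TRaGS libraries. In these bulk samples fewer cells that express a gene and less RNA per cell cannot be told apart.

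**Figure D1:**
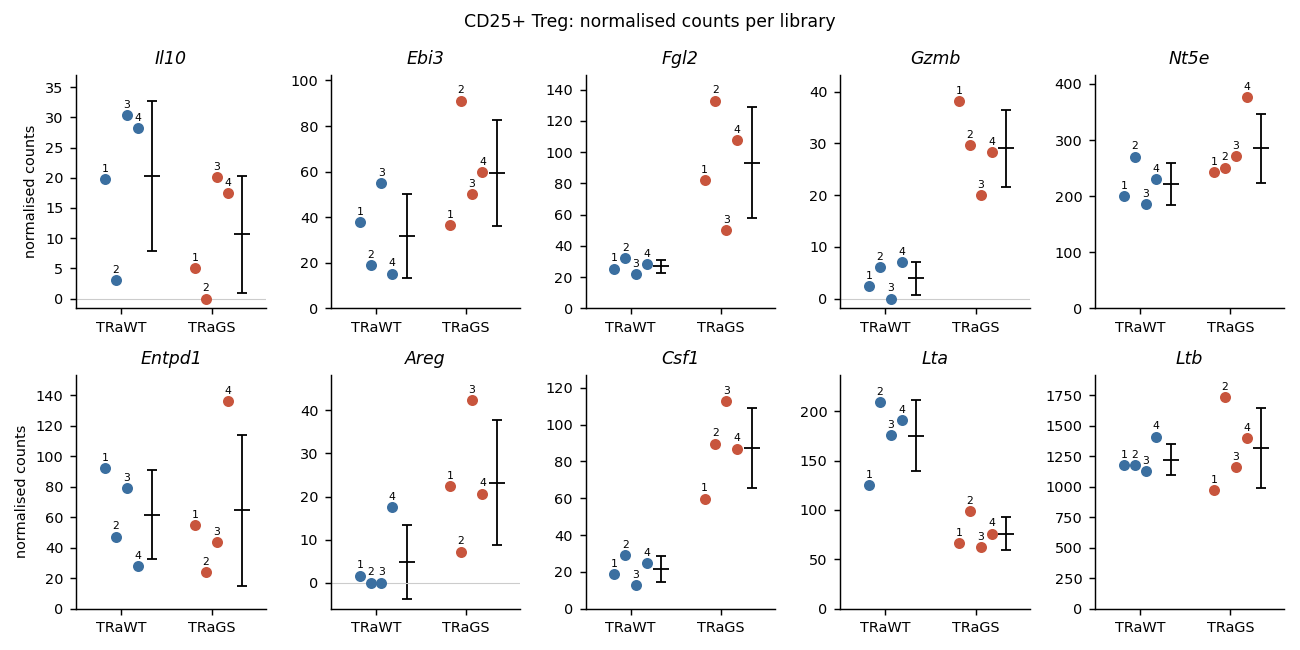
Normalised counts (vertical axes, 1 scale per gene) of the 10 members in the 8 Treg libraries; each point is 1 animal with its replicate number, and the bar is the mean with its SD (n = 4). The TRaGS points lie above all TRaWT points for Csf1, Fgl2 and Gzmb and below all of them for Lta, while the groups overlap for the other 6.

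Csf1 encodes macrophage colony-stimulating factor, the growth factor that macrophages and monocytes need to survive. It lies on chromosome 3, 107741048 to 107760469 on the minus strand (GRCm38), and no annotated gene overlaps it. TRaWT Treg had 18.9, 29.2, 12.8 and 24.6 normalised counts and TRaGS Treg had 59.8, 89.6, 113 and 87.0. Every TRaGS library was above every TRaWT library. The means were 21.4 ± 7.09 and 87.3 ± 21.6 normalised counts. The log2 fold change was 2.00 ± 0.47 (95% interval 1.05 to 2.96, limma adjusted p = 0.0199). The call held in 15 of 20 alternatives, edgeR (adjusted p = 0.0158) and DESeq2 (0.000484) among them. It held without TRaGS replicate 1 (adjusted p = 0.0399). It was lost without TRaGS replicate 2 (adjusted p = 0.0610), without TRaGS replicate 3 (0.151), without TRaGS replicate 4 (0.0928), with TRaGS replicates 1 and 2 alone (0.495) and without the variance trend (0.131), while the log2 fold change stayed between 1.79 and 2.17 whichever library was left out. Csf1r, the receptor of its product and a myeloid marker, averaged 0.835 normalised counts in TRaWT Treg and 1.73 in TRaGS Treg. All macrophage and dendritic cell markers (11 genes) summed to 0.000597% to 0.00219% of reads in TRaWT Treg and 0.000397% to 0.00195% in TRaGS Treg.

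Lymphotoxin alpha, the product of Lta, is secreted as a homotrimer that binds the TNF receptors, or is held at the membrane by lymphotoxin beta, the product of Ltb, in a complex that signals through the lymphotoxin beta receptor to organise lymphoid tissue. The genes are neighbours on chromosome 17. Lta spans 35203165 to 35205351 on the minus strand and Ltb 35194439 to 35196320 on the plus strand. Between them lies Tnf, the gene of tumour necrosis factor, at 35199381 to 35202007, which lies 1158 bases from Lta and 3061 bases from Ltb.

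Lta had 125, 209, 176 and 191 normalised counts in TRaWT Treg and 66.4, 99.0, 62.5 and 76.1 in TRaGS Treg. Every TRaGS library was below every TRaWT library. The means were 175 ± 36.3 and 76.0 ± 16.4 normalised counts, and the log2 fold change was -1.19 ± 0.29 (95% interval -1.78 to -0.60, limma adjusted p = 0.0262). edgeR (adjusted p = 0.0316) and DESeq2 (0.00387) called it too, but the call was lost in 10 of 20 alternatives. Leaving out 1 library ended it for TRaGS replicate 1 (adjusted p = 0.0985), replicate 3 (0.0966) and replicate 4 (0.0691) and for TRaWT replicate 2 (0.126), replicate 3 (0.0597) and replicate 4 (0.107), with log2 fold changes of -1.35 to -1.10 over all libraries left out. Without TRaGS replicate 2 it held (adjusted p = 0.0169). The others were TRaGS replicates 1 and 2 alone (adjusted p = 0.261), no level filter (0.0515), no variance trend (0.244) and edgeR without TRaWT replicate 2 (0.145).

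Ltb had 1177, 1176, 1130 and 1412 normalised counts in TRaWT Treg and 974, 1739, 1159 and 1401 in TRaGS Treg. The groups overlapped, and TRaGS held both the lowest and the highest library. The log2 fold change was 0.08 ± 0.15 with a 95% interval of -0.23 to 0.38 (limma adjusted p = 0.940), an interval that does not include the fall of Lta. The difference between the changes of both genes was not itself tested. Tnf, which lies between them, had 29.6, 71.4, 110 and 39.9 normalised counts in TRaWT Treg and 70.6, 5.78, 53.5 and 71.8 in TRaGS Treg. Its groups overlapped, with a log2 fold change of -0.59 ± 0.56 (limma adjusted p = 0.842).

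Fgl2 encodes a fibrinogen-like protein whose secreted form inhibits dendritic cells and B cells through an inhibitory Fc receptor. It lies on chromosome 5, 21372642 to 21378374 on the plus strand, within Ccdc146 on the opposite strand, which had no read in any of the 16 libraries. TRaWT Treg had 25.5, 32.2, 22.2 and 28.2 normalised counts and TRaGS Treg had 82.2, 133, 50.2 and 108. The TRaWT libraries lay close together, and every TRaGS library was higher, with TRaGS replicate 3 the nearest to them. The means were 27.0 ± 4.25 and 93.3 ± 35.4 normalised counts, and the log2 fold change was 1.68 ± 0.44 (95% interval 0.78 to 2.57). The limma adjusted p of 0.0505 missed the threshold. It passed in 6 of 20 alternatives: edgeR (0.0241), DESeq2 (0.00257), a filter at a mean of 20 (0.0418), a pseudocount of 5 (0.0400), upper-quartile scaling (0.0484) and without TRaGS replicate 3 (0.0446). Over all 20 the adjusted p ran from 0.00257 to 0.270. Without TRaGS replicate 1 the log2 fold change was 1.71 (adjusted p = 0.157), and without TRaGS replicate 2 it was 1.48 (0.226).

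Gzmb encodes granzyme B, the serine protease that kills target cells after it is delivered from granules. It lies on chromosome 14, 56258838 to 56262260 on the minus strand. TRaWT Treg had 2.47, 6.04, 0 and 7.04 normalised counts and TRaGS Treg had 38.2, 29.6, 20.1 and 28.3. Every TRaGS library was above every TRaWT library, with 15 reads in all 4 TRaWT libraries and 131 in the TRaGS ones. The means were 3.89 ± 3.25 and 29.0 ± 7.42 normalised counts. The log2 fold change was 2.97 ± 0.89 (95% interval 1.17 to 4.77), and the limma adjusted p was 0.124. Of 19 alternatives only DESeq2 called it (adjusted p = 0.0286), and edgeR gave 0.242. Leaving out TRaGS replicate 1 gave a log2 fold change of 2.83 (adjusted p = 0.395), and leaving out TRaGS replicate 2 gave 2.95 (0.249). NK cell markers, of cells that carry granzyme B, summed to 9.93e-05% to 0.000431% of reads in TRaWT Treg and 0.000135% to 0.000241% in TRaGS Treg, and of the 4 NK genes Klra8 was at 0. The CD8 T cell markers Cd8a and Cd8b1 summed to 0.00901% to 0.0104% in TRaWT and 0.00931% to 0.0108% in TRaGS.

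Areg encodes amphiregulin, a ligand of the epidermal growth factor receptor. It lies on chromosome 5, 91139599 to 91148432 on the plus strand. TRaWT Treg had 1.64, 0, 0 and 17.6 normalised counts and TRaGS Treg had 22.4, 7.23, 42.4 and 20.7. TRaWT replicate 4 lay among the TRaGS libraries, so the groups overlapped, while the other 3 TRaWT libraries were below all of TRaGS. There were 17 reads in TRaWT and 94 in TRaGS. The means were 4.81 ± 8.56 and 23.2 ± 14.5 normalised counts, and the log2 fold change was 2.96 ± 1.05 (95% interval 0.85 to 5.07, limma adjusted p = 0.274). None of 19 alternatives called it.

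**Figure D2:**
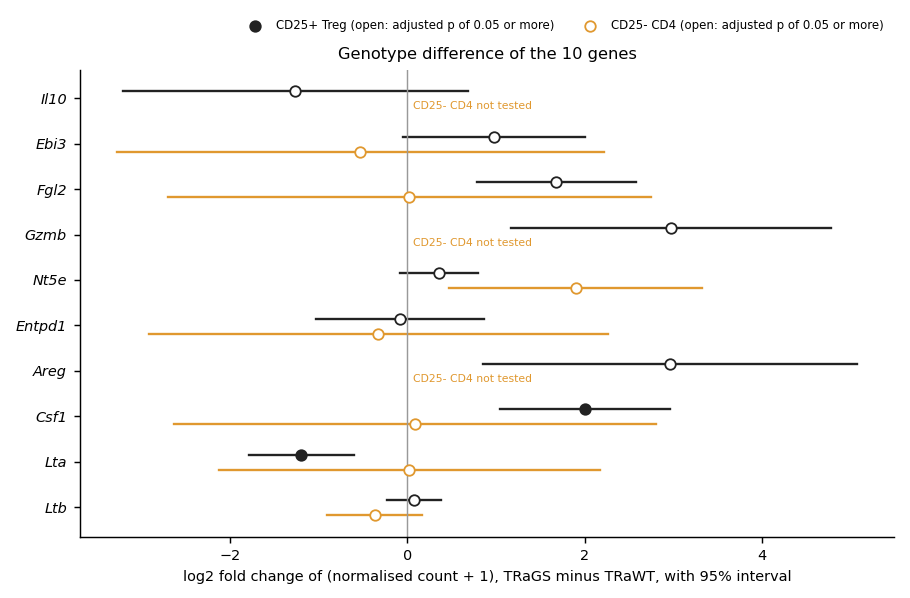
Log2 fold change of (normalised count + 1), TRaGS minus TRaWT (horizontal axis), of each member in Treg (black) and CD4 (orange), with its 95% interval; filled points have an adjusted p under 0.05. In Treg the intervals of Csf1, Fgl2, Gzmb and Areg lie above 0 and that of Lta below it, with Csf1 and Lta filled, and in CD4 only the interval of Nt5e leaves out 0.

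The inhibitory cytokines did not pass the test in Treg. Il10, on chromosome 1 at 131019845 to 131024974 (plus strand), encodes interleukin 10, which damps antigen presentation and inflammatory cytokine output. TRaWT Treg had 19.7, 3.02, 30.3 and 28.2 normalised counts and TRaGS Treg had 4.98, 0, 20.1 and 17.4. Both genotypes held high and low animals and overlapped. The means were 20.3 ± 12.4 and 10.6 ± 9.66 normalised counts and the log2 fold change was -1.26 ± 0.96, with a 95% interval of -3.20 to 0.68 that allows a change either way (limma adjusted p = 0.775). With 1 library left out the log2 fold change ran from -1.94 to -0.33. The smallest change was that without TRaGS replicate 2, the library with no read (limma adjusted p = 0.971).

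Ebi3, on chromosome 17 at 55952640 to 55957022 (plus strand), encodes a chain shared by interleukin 27 and interleukin 35, in each of which it pairs with another chain. TRaWT Treg had 37.8, 19.1, 54.8 and 15.3 normalised counts and TRaGS Treg had 36.5, 91.1, 50.2 and 59.8. The highest TRaWT library lay above the lowest pair of TRaGS libraries. The means were 31.7 ± 18.3 and 59.4 ± 23.2 normalised counts, and the log2 fold change was 0.98 ± 0.51 (95% interval -0.04 to 2.01, limma adjusted p = 0.576). The antisense gene Gm16712 overlaps Ebi3 and had 24.6 normalised counts in TRaWT replicate 4, 0.822 in TRaWT replicate 1 and 0 in the other 6 Treg libraries. Whether reads were counted by strand is not given in the sources used here, so reads of this pair may be mixed. Il12a, whose product joins that of Ebi3 in interleukin 35, had no read in any of the 16 libraries.

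The nucleotidases act in sequence, CD39 turning ATP and ADP into AMP and CD73 turning AMP into adenosine. Entpd1 lies on chromosome 19, 40612366 to 40741602 on the plus strand, and overlaps 2 processed pseudogenes and a sense intronic transcript on the same strand. It had 92.1, 47.3, 79.3 and 28.2 normalised counts in TRaWT Treg and 54.8, 23.9, 43.5 and 136 in TRaGS Treg. TRaGS held both the lowest and the highest library. The log2 fold change was -0.08 ± 0.47 (95% interval -1.03 to 0.87, limma adjusted p = 0.981), and its sign turned with edgeR (0.06) and DESeq2 (0.06). Nt5e lies on chromosome 9, 88327197 to 88372092 on the plus strand. It had 200, 271, 185 and 230 normalised counts in TRaWT Treg and 242, 251, 271 and 376 in TRaGS Treg. TRaGS replicate 4 stood above the other 7 libraries. The means were 221 ± 37.7 and 285 ± 61.9 normalised counts, and the log2 fold change was 0.36 ± 0.22 (95% interval -0.08 to 0.79, limma adjusted p = 0.668).

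In CD4, 7 of the 10 members could be tested and 3 were too low to judge. Il10 had 1 read in the 4 TRaWT libraries and 3 in the TRaGS ones, Gzmb 8 and 6, and Areg 0 and 1. None of the 7 tested members was called by limma or by edgeR, and 1, Nt5e, had an unadjusted p under 0.05 in limma. DESeq2 called none either, but it gave no adjusted p for Ebi3 and Csf1. Genes called over the whole CD4 table were 0.0575% of 10426 tested, and 5.17% had an unadjusted p under 0.05. The genotypes overlapped for all 7 members, and they did not for 3.16% of all tested genes. The median log2 fold change was 0.02 over the 7 members and -0.01 over all tested genes. In CD4 the SEs came from the trend of variance with level and not from the spread of the single gene.

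**Figure D3:**
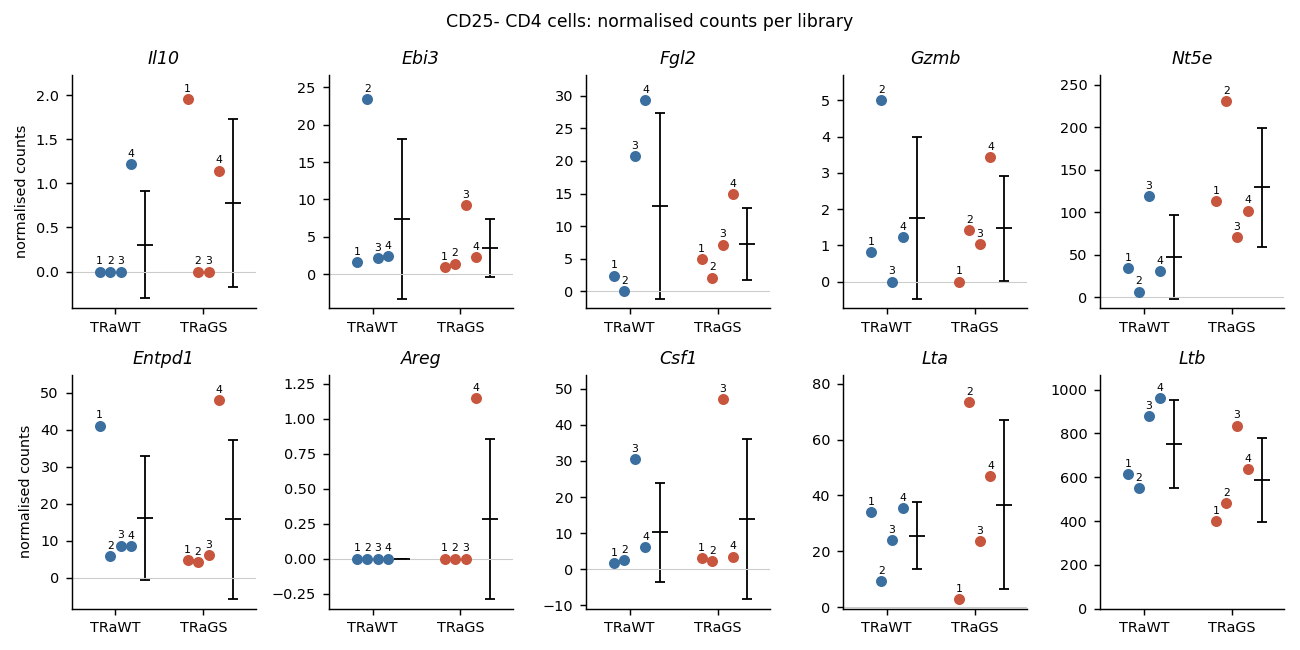
Normalised counts (vertical axes, 1 scale per gene) of the 10 members in the 8 CD4 libraries; each point is 1 animal with its replicate number, and the bar is the mean with its SD (n = 4). The genotypes overlap for all 7 tested members, and Il10, Gzmb and Areg stay at a few reads or none.

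Nt5e in CD4 had 33.9, 6.68, 119 and 30.5 normalised counts in TRaWT and 113, 231, 70.7 and 102 in TRaGS. TRaWT replicate 3 lay among the TRaGS libraries and the other 3 TRaWT libraries lay below all of them. The means were 47.4 ± 49.0 and 129 ± 70.3 normalised counts. The log2 fold change was 1.90 ± 0.73 (95% interval 0.48 to 3.32, limma adjusted p = 0.899), and it stayed between 1.22 and 2.54 with any 1 library left out. The highest value, 231, came from TRaGS replicate 2, and without that library the log2 fold change was 1.58 (adjusted p = 0.934).

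Ltb in CD4 had 615, 550, 880 and 960 normalised counts in TRaWT and 400, 483, 836 and 638 in TRaGS. The groups overlapped, with a log2 fold change of -0.37 ± 0.27 (95% interval -0.90 to 0.17, limma adjusted p = 0.947). Lta had 33.9, 9.19, 24.0 and 35.4 normalised counts in TRaWT and 2.93, 73.5, 23.6 and 47.0 in TRaGS, so TRaGS held both extremes, and the log2 fold change was 0.02 ± 1.10 (limma adjusted p = 0.999). Without TRaGS replicate 2, which holds the highest value, it was -0.52.

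Csf1, Entpd1, Ebi3 and Fgl2 were low in most CD4 libraries. Csf1 had 1.61, 2.51, 30.5 and 6.10 normalised counts in TRaWT and 2.93, 2.12, 47.2 and 3.44 in TRaGS. Replicate 3 of each genotype stood far above the others. Entpd1 had 41.2, 5.85, 8.71 and 8.54 normalised counts in TRaWT and 4.89, 4.24, 6.15 and 48.1 in TRaGS, with 1 high library per genotype. Ebi3 had 1.61, 23.4, 2.18 and 2.44 normalised counts in TRaWT and 0.978, 1.41, 9.23 and 2.29 in TRaGS, and Fgl2 had 2.42, 0, 20.7 and 29.3 in TRaWT and 4.89, 2.12, 7.18 and 14.9 in TRaGS. Their log2 fold changes were 0.09 ± 1.39 for Csf1, -0.33 ± 1.32 for Entpd1, -0.53 ± 1.40 for Ebi3 and 0.02 ± 1.39 for Fgl2. The SE alone exceeds 1 log2 unit for each of the 4, so a change of the size seen for Csf1 in Treg was not detectable here.

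A difference of the genotype effect between subsets was tested by first subtracting, in every animal, the CD4 from the Treg log2 value. Of the 7 members tested in both subsets none was called by limma, and the smallest adjusted p was 0.601. Of 9914 tested genes 0.171% were called. With all libraries in 1 model and no replicate block the count of members was also 0. An unadjusted p under 0.05 was found for 1 member, Nt5e, and for 6.62% of all tested genes. Its log2 fold change in Treg minus that in CD4 was -1.54 ± 0.63 (limma adjusted p = 0.601). The difference for Csf1 was 1.91 ± 1.40 (adjusted p = 0.854) and for Lta -1.22 ± 0.93 (adjusted p = 0.857). The changes of Csf1 and Lta passed the test in Treg and not in CD4, and these values do not show that the subsets differ. For Fgl2 the difference was 1.65 ± 1.39 (adjusted p = 0.868), for Ebi3 1.51 ± 1.48 (0.900), for Ltb 0.45 ± 0.26 (0.797) and for Entpd1 0.25 ± 1.24 (0.983).

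Levels in both subsets are given as CPM, with no test, since the tables were normalised separately. The totals behind CPM include Gm42418, whose share differed between libraries. Lta, Ltb, Nt5e and Entpd1 were higher in the Treg library than in the CD4 library of all 8 animals. Lta had 53.5 ± 12.2 CPM in TRaWT Treg and 24.1 ± 6.15 in TRaGS Treg, against 8.01 ± 3.71 and 10.95 ± 8.64 in CD4. The Treg minus CD4 difference of log2(CPM + 1) for Lta was 2.69 ± 1.03 over TRaWT animals and 1.52 ± 1.41 over TRaGS animals (SD, n = 4). Ltb had the smallest difference between subsets, 0.96 ± 0.59 on that scale (SD, n = 8 animals), with 372 ± 28.9 and 418 ± 117 CPM in Treg and 234 ± 49.1 and 180 ± 63.6 in CD4. Nt5e and Entpd1 differed by 1.96 ± 1.43 and 2.03 ± 0.71.

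Il10, Ebi3, Gzmb and Csf1 were higher in Treg in 7 of 8 animals and Fgl2 and Areg in 6 of 8, counting a log2 difference over 0.01 as higher. The Treg minus CD4 differences of log2(CPM + 1) were 1.95 ± 1.21 for Il10, 2.64 ± 1.46 for Ebi3, 2.37 ± 1.70 for Fgl2, 2.21 ± 1.73 for Csf1, 1.64 ± 1.39 for Gzmb and 1.77 ± 1.43 for Areg (SD, n = 8). The exceptions were TRaGS replicate 2 for Il10, which had no read in either library, TRaWT replicate 2 for Ebi3, TRaWT replicate 4 for Fgl2 and TRaWT replicate 3, tied with 19 reads of Fgl2 in each subset, TRaWT replicate 3 for Gzmb with no read in either library, and TRaWT replicate 3 for Csf1. For Areg they were TRaWT replicates 2 and 3, which had no read in either library. For Gzmb the difference was 0.45 ± 0.50 over TRaWT animals and 2.83 ± 0.69 over TRaGS animals. In TRaWT, Gzmb had 1.19 ± 0.977 CPM in Treg and 0.564 ± 0.730 in CD4, from 15 and 8 reads. Both means are of the order of the 3 reads that a count of 0 allows in a single library. Over all libraries of the group these 3 reads come to 0.234 CPM in Treg and 0.228 CPM in CD4, below both means. The order of these differences from Ebi3 down to Gzmb was not resolved, since neighbours lay closer than their SD over animals.

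**Figure D4:**
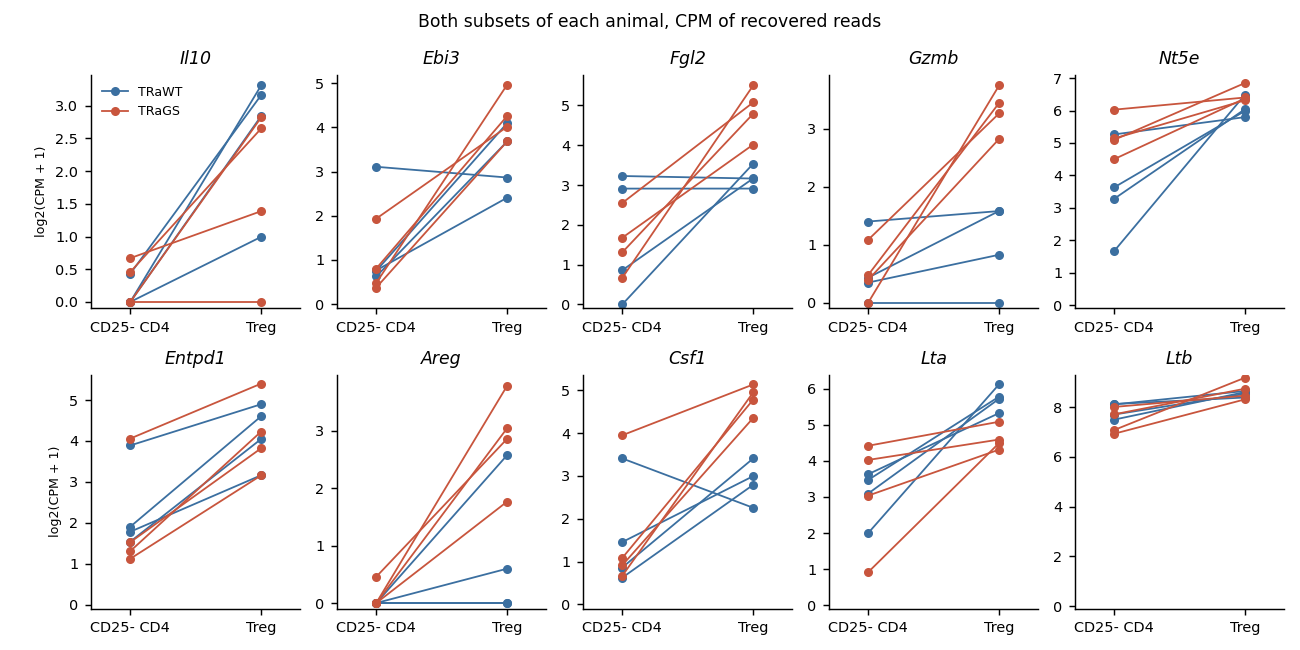
log2(CPM + 1) of each member (vertical axes) in the CD4 and the Treg library of the same animal, joined by a line and coloured by genotype. All 8 lines rise for Lta, Ltb, Nt5e and Entpd1, and for Gzmb the TRaGS lines end above the TRaWT lines.

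Other genes of the same roles were read from 6 lists. Of 17 other suppressor products 12 were tested in Treg, 2 rose and none fell, with a median log2 fold change of 0.27. Penk, which encodes the opioid precursor proenkephalin, went from 116 ± 79.1 to 320 ± 52.6 normalised counts (log2 fold change 1.69 ± 0.30, limma adjusted p = 0.000999), with no overlap. Lgals1, which encodes galectin 1, went from 250.1 ± 56.5 to 475 ± 124 (0.91 ± 0.21, adjusted p = 0.0150), and its groups overlapped. The call of Lgals1 was lost in 7 of 20 alternatives. Of 24 other secreted cytokines 13 were tested in Treg and none was called, with a median of 0.35. Il21, the gene of a helper T cell cytokine, had 0.205 ± 0.411 normalised counts in TRaWT and 11.8 ± 6.92 in TRaGS (adjusted p = 0.317). It passed the level filter through its TRaGS libraries. Tnfsf11, which encodes RANK ligand, had 20.6 ± 22.6 and 45.6 ± 12.4 (adjusted p = 0.382).

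Among 14 other cytotoxic granule genes 12 were tested in Treg, none rose and 1 fell, with a median log2 fold change of -0.02. Ctsw, which encodes the protease cathepsin W, went from 208 ± 27.3 to 83.0 ± 35.0 normalised counts (-1.39 ± 0.29, limma adjusted p = 0.00608), with no overlap. Gzmb and Ctsw thus had opposite signs in the same libraries. Of 9 adenosine pathway genes 7 were tested in Treg and none was called, with a median of -0.25. P2rx7, an ATP-gated channel, had 194 ± 86.6 and 139 ± 35.6 normalised counts (adjusted p = 0.709), and Adk, adenosine kinase, had 92.5 ± 49.9 and 57.0 ± 13.5 (adjusted p = 0.741).

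Of 14 receptors and partner chains 6 were tested in Treg, 1 rose and 1 fell, with a median of 0.05. Tnfrsf1b, which encodes TNF receptor 2, a receptor of the lymphotoxin alpha homotrimer, went from 299 ± 45.0 to 549 ± 58.6 normalised counts (0.88 ± 0.18, limma adjusted p = 0.00571). Il6st, which encodes gp130, a signalling chain of the interleukin 6 and interleukin 27 receptors, went from 636 ± 69.7 to 380 ± 64.0 (-0.75 ± 0.17, adjusted p = 0.0166), a call lost in 6 of 20 alternatives. All 16 regulators of suppressor genes were tested in Treg, 7 rose and none fell, with a median of 0.93. Earlier results of these data were known when this list was made, so its count is no independent evidence of its direction. The interleukin 33 receptor gene Il1rl1 went from 115 ± 51.5 to 584 ± 148 normalised counts (2.44 ± 0.27, adjusted p = 9.14e-08) and the nuclear receptor gene Rora from 437 ± 95.4 to 1043 ± 105 (1.28 ± 0.17, adjusted p = 4.17e-06). Maf, a transcription factor that drives Il10 in T cells, went from 1012 ± 220 to 2032 ± 133 (1.03 ± 0.14, adjusted p = 1.3e-05), while Il10 itself did not pass the test. Il18r1, a chain of the interleukin 18 receptor, went from 253 ± 57.9 to 510 ± 70.7 (1.03 ± 0.19, adjusted p = 0.00205). The genotypes did not overlap for these 4 genes, and each call was lost in 1 of 20 alternatives, the fit without the variance trend.

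**Figure D5:**
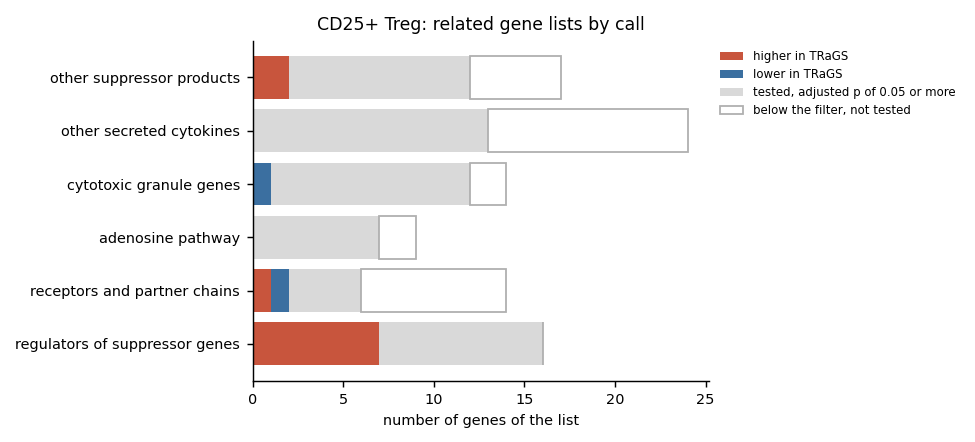
Number of genes (horizontal axis) of each of the 6 lists in Treg that were higher in TRaGS (red), lower in TRaGS (blue), tested without a call (grey) or below the level filter (white). The regulators hold 7 of the genes called higher, and the secreted cytokines and the adenosine pathway hold none in either direction.

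In CD4 none of the tested genes of the 6 lists was called by limma. The list medians were 0.66 for other suppressor products (9 tested), 0.07 for secreted cytokines (14), 0.21 for granule genes (12), 0.01 for the adenosine pathway (8), -0.39 for receptors and partner chains (6) and -0.04 for regulators (16). Tnfsf8, which encodes CD30 ligand, had 114 ± 50.7 normalised counts in TRaWT and 283 ± 136 in TRaGS (1.28 ± 0.46, limma adjusted p = 0.788), and Tnfsf14, which encodes LIGHT, a ligand of the lymphotoxin beta receptor, had 20.3 ± 11.5 and 5.75 ± 4.19 (adjusted p = 0.947). Eomes, a transcription factor of cytotoxic cells, had 53.7 ± 25.96 and 141 ± 20.2 normalised counts without overlap (1.49 ± 0.62, adjusted p = 0.947). The other genes with the smallest p of their lists, Stat3, Lgals1, Lgals9, Srgn, Ctsw, Art2b, Dpp4, Il6st and Il10ra, each had an adjusted p of 0.947. For the difference between subsets 1 gene of the 6 lists was called, Rora at 1.53 ± 0.36 (limma adjusted p = 0.0345), where 0.0303% of all tested genes were called in that direction. That call was lost without the variance trend and with the trend on the mean difference. Lgals9, Lrrc32, Tnfsf14, Il21, Serpinb6b, Ctsw, Art2b, Dpp4, Tnfrsf1a and Il6st, with the smallest p of the other lists, had adjusted p from 0.700 for Tnfsf14 to 0.909 for Ctsw.

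The genes most like the called members were sought in Treg among 5797 genes that averaged 50 or more normalised counts, by the root mean square difference of centred log2 values over the 8 libraries. For Csf1 these were Casp1, which encodes caspase 1, with a difference of 0.29, S100a4, which encodes a calcium-binding protein, with 0.34, and Tfe3, the gene of a transcription factor, with 0.38. The median over all candidates was 1.13 and the deviation of Csf1 from its own mean was 1.07. For Lta they were Chchd10, a mitochondrial gene, and Slfn1, of the Schlafen family, each with 0.19, and Snrpg, which encodes a splicing protein, with 0.26, against a median of 0.73. Casp1, S100a4, Tfe3 and Slfn1 passed the genotype test, with limma adjusted p of 0.00608, 4.83e-08, 0.00127 and 0.000407. Chchd10 (adjusted p = 0.252) and Snrpg (0.507) did not. Likeness here includes the genotype difference, and it says nothing of shared control.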

How the data were processed

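CD25- CD4+ T cells and CD25+ CD4+ Treg of 4 TRaWT and 4 TRaGS mice were profiled with a forward 3' mRNA kit, per the labels' protocols. The submitters' processing notes name the build GRCm38; no source used here names an aligner or counter. The authors deposited 1 table of normalised counts per subset, a signal unit of reads divided by 1 factor per library, each table normalised by itself. Values were whole multiples of 1 step per library (tolerance 0.001), which gave the reads back; for 1 Treg library (TRaWT replicate 2) the step lies near 1 and this is less certain. No 2 libraries agreed within sampling noise. Reads carry no stated molecular identifiers, so intervals and floors cover counting error only.

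Symbols matched 47224 of 47643 identifiers, and coordinates came from GENCODE mouse release 21 (GRCm38). Genes averaging 5 or more normalised counts in a subset entered limma 3.58.1 (R 4.3.3) as log2(value + 1). The variance was trended on level and p adjusted by Benjamini-Hochberg (threshold 0.05). Changes of low genes depend on this scale, in either direction. The log2 fold change of Areg in Treg was 2.96, 3.50 with a pseudocount of 0.5, 1.69 with a pseudocount of 5 and 2.27 with edgeR. That of Ebi3 in CD4 was -0.53, and -1.09 with edgeR. Prior degrees of freedom were infinite in CD4, 36.8 in Treg and 106.3 for the difference between subsets, which used each animal's Treg minus CD4 difference, tied by mouse number in the titles. Alternatives included, on the recovered reads, edgeR 4.0.16 and DESeq2 1.42.0, then other pseudocounts (0.5 and 5), filters and scalings, no variance trend, a replicate block, leaving out each library, and TRaGS replicates 1 and 2 alone, whose mouse numbers lie nearest those of the TRaWT animals. The limma fits were tested on simulated data with changes of 2-fold and 4-fold. In CD4 they recovered 8% of the 2-fold and 33% of the 4-fold changes. In Treg the shares were 18% and 55%, and for the difference between subsets 3% and 32%. Many real changes of these sizes would thus be missed, and a gene not called may still differ. The text names all 10 members, up to 4 called genes of each list by smallest p or the 2 with the smallest p where none was called, and the 3 genes most like each called member. Members and lists were chosen with earlier results of these data known. Figures were drawn with matplotlib 3.10.9.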

Additional observations from a re-analysis of the deposited data

Results flagged for a closer look

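A single library stood apart from the other 3 of its group in 8 of the 34 groups of 4 examined over the tested members (gap over range above Dixon's 95% critical value). That value marks about 5% of groups by chance where values are normally distributed. Normalised counts, many of a few reads, need not be so distributed, so no excess over 5% is read from this count. Of these, 6 lay in CD4. They were Ebi3 in TRaWT replicate 2 (23.4 normalised counts) and TRaGS replicate 3 (9.23), Entpd1 in TRaWT replicate 1 (41.2) and TRaGS replicate 4 (48.1), and Csf1 in TRaWT replicate 3 (30.5) and TRaGS replicate 3 (47.2). In Treg they were Areg in TRaWT replicate 4 (17.6 normalised counts) and Ltb in TRaWT replicate 4 (1412). All 8 were the highest library of their group.

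The genotype effect on Rora, a nuclear receptor gene of the list of regulators, was called as different between subsets. Its log2 fold change in Treg minus that in CD4 was 1.53 ± 0.36 (limma adjusted p = 0.0345). The call was lost without the variance trend and with the trend on the mean difference, where no gene at all was called. Of the genes in the 6 lists Rora was the only one called for the difference between subsets, and no member of the 10 was called for it.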

How the results depend on the processing

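The count of called members stayed at 0 in CD4 and for the difference between subsets under every alternative run. In Treg it was 2 with the design used, 4 with DESeq2, 1 without a level filter, 0 without the variance trend, 0 with TRaGS replicates 1 and 2 alone, 1 with edgeR without TRaWT replicate 2 (an alternative chosen after seeing the data), and 0 to 2 with 1 library left out. Genes called over the whole Treg table numbered 106, and 42 with TRaGS replicates 1 and 2 alone, 44 with edgeR without TRaWT replicate 2, 62 without a filter, 0 without the variance trend (1008 had an unadjusted p under 0.05 in the limma fit used, edgeR called 90 and DESeq2 138) and 56 to 108 with 1 library left out. In CD4 the 6 called genes became 10 with DESeq2, 3 with edgeR, 27 with TRaGS replicates 1 and 2 alone, 1 without a filter, 0 without the trend and 3 to 9 with 1 library left out. For the difference the 17 became 34 with TRaGS replicates 1 and 2 alone, 1 without a filter, 0 without the trend, 0 with the trend on the mean difference, 3 with no replicate block and all libraries in 1 model, and 12 to 31 with 1 animal left out. The cause of these shifts was not tested.

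Replicate numbers showed no pairing of the genotypes. The check correlated the deviations of each library from the gene means of its group, not the expression levels. Deviations of same-numbered libraries correlated by 0.00445 to 0.0344 in CD4 and -0.00214 to 0.0116 in Treg. Those of the CD4 and Treg libraries of the same animal correlated by -0.00311 to 0.0791, so pairing by animal barely shows in this check. The difference between subsets takes that pairing from the mouse numbers in the titles. With the replicate block 4 genes were called in CD4, 112 in Treg and 18 for the difference, and the 2 members called in Treg stayed called.

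Of the members' values under alternatives, 104 of 125 in CD4, 168 of 197 in Treg and 124 of 127 for the difference kept direction and call; 15 in Treg lost a call and 7 gained one. The direction turned for values within 1 SE of 0. In CD4, Fgl2 went to -0.85 with DESeq2, -0.84 with edgeR, -0.68 with TRaGS replicates 1 and 2 alone, -0.23 with a pseudocount of 5 and -0.0576 with upper-quartile scaling, Csf1 to -0.94 and Lta to -0.48 with TRaGS replicates 1 and 2 alone, Lta also to -0.0776 with upper-quartile scaling and -0.0024 with a pseudocount of 0.5, and Entpd1 to 0.32 with quantile normalisation. With 1 library left out CD4 values ran from -0.91 to 0.73 for Fgl2, -1.08 to 0.25 for Entpd1, -0.83 to 0.83 for Csf1 and -0.52 to 0.90 for Lta. In Treg, Entpd1 went to 0.0550 with edgeR and 0.0567 with DESeq2, and with 1 library left out ran from -0.53 to 0.29, and Ltb from -0.0654 to 0.21. For the difference, Entpd1 went to -0.41 with quantile normalisation and ran from -0.0911 to 0.55. The other-cell marker share in CD4 ran from -0.0020 to 0.000646 percentage points. With 4 animals a genotype, members with few reads (Il10, Gzmb and Areg in Treg and most members in CD4) have wide intervals, and a missed threshold there does not show that genotypes are alike.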

Other observations

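TRaGS replicate 2 was the extreme TRaGS library for several members in Treg. It had the highest normalised counts of the 4 TRaGS libraries for Ebi3 (91.1), Fgl2 (133), Lta (99.0) and Ltb (1739), and the lowest for Il10 (0), Entpd1 (23.9), Areg (7.23) and Tnf (5.78). In CD4 the same animal had the highest TRaGS value for Nt5e (231) and Lta (73.5) and the lowest for Fgl2 (2.12), Entpd1 (4.24) and Csf1 (2.12). Its Treg library was not the extreme one for Csf1 (89.6), Gzmb (29.6) or Nt5e (251).

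Prdm1, which encodes Blimp-1, a transcription factor that acts with Maf on Il10 in T cells, had 72.3, 31.2, 79.3 and 48.1 normalised counts in TRaWT Treg and 188, 117, 172 and 212 in TRaGS Treg (limma adjusted p = 0.00571), with no overlap. It is a member of the list of regulators and was chosen here after its values were seen. The plasma cell marker Mzb1 had 25.7, 0.723, 14.5 and 3.26 normalised counts in the same TRaGS libraries and no read in TRaWT Treg. The part of plasma cells in the Prdm1 values was not tested, and no Prdm1 value without TRaGS replicate 1 is given. TRaGS replicate 2, the library with no Il10 read, had the lowest TRaGS value of Prdm1 and the highest of Maf (2188).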
